A study of Mus musculus with 3 samples.

Results

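The genes described here are the transforming growth factor beta (TGF-beta) ligands Tgfb1, Tgfb2 and Tgfb3, the receptors Tgfbr1 and Tgfbr2, the latent TGF-beta binding proteins Ltbp1, Ltbp2, Ltbp3 and Ltbp4, and the inhibitor Smad7. All 10 were found by symbol among the 33696 features of each of the 2 tendon libraries and the 35980 features of the dorsal root ganglion (DRG) library. The series asks how sensory nerves bear on tendon under overstrain, and each library is a droplet single-cell RNA library (10x Genomics), in which transcripts are counted by unique molecular identifiers (UMIs) and droplets are told apart by a barcode. All mice were C57BL/6. In the neurectomy group the sural nerve was cut 1 week before the ankle was held in dorsiflexion for 4 weeks, and Achilles tendon was taken from 5 mice. The sham group had the sciatic nerve exposed through the biceps femoris and the same 4 weeks of dorsiflexion, and its tendon also came from 5 mice. Red blood cells of the tendon digests were lysed, and ganglion cells were enriched on a density gradient, which bears on the cells each library holds. The age of the tendon mice and the way their tissue was combined are not stated in the labels. The DRG library pooled 18 lumbar and sacral ganglia of 6 mice. At 4 weeks of age these mice had 5 µL of the vector AAV-PHP.S-tdTomato injected at the left Achilles tendon sheath, and their ganglia were collected 4 weeks later. One label names a lentivirus instead, and the labels differ on whether ganglia of the uninjected side were included. With a single library in each group, the differences below could not be checked on replicates, and they carry no p-value. All intervals are exact 95% intervals and cover counting error only.

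TGF-beta is made as a precursor whose propeptide stays bound to the mature ligand and keeps it inactive. In most tissues this latent complex is linked to an LTBP, which ties it to fibrillin and other matrix fibres until integrins or proteases release the ligand. The free ligand binds the type II receptor Tgfbr2, which phosphorylates the type I receptor Tgfbr1, which in turn phosphorylates the signal transducers Smad2 and Smad3. Smad7 is induced by the signal and blocks the activated type I receptor. In tendon the pathway is known for its role in forming tendon progenitors, in keeping tenocyte identity and in scar formation. Ltbp2 differs from the other LTBPs in that it does not bind the latent ligand and is known as a component of elastic and fibrillin fibres.

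Promoter sequence was available from RefSeq (build GRCm38.p6) for 8 of the 10 genes. The windows of Ltbp2 and Tgfb2 are shown. Ltbp2 had the largest ratios between the tendon libraries, and Tgfb2 had its highest tendon levels in fibroblast-like and synovial lining-like barcodes. Each window is 300 bases long and spans the start of the gene, on the strand of the gene, 5′ to 3′. Capitals mark CAGAC, the core of a SMAD binding element, in either orientation (GTCTG on the other strand), and TATAAA. The Ltbp2 window lies at chr12:84876442-84876741 on the minus strand, and the Tgfb2 window at chr1:186705940-186706239 on the minus strand.
Ltbp2: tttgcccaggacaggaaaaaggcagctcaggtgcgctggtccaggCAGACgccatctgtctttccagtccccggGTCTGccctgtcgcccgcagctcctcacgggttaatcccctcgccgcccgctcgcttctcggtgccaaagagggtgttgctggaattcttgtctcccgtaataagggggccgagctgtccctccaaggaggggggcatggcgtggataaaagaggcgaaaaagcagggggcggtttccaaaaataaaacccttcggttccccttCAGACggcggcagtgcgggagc
Tgfb2: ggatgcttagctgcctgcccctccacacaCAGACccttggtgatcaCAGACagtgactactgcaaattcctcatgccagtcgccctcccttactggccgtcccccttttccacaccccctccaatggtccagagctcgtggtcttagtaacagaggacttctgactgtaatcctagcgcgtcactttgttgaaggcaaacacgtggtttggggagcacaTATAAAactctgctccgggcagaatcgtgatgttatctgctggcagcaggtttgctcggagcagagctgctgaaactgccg
The Ltbp2 window held 3 matches to CAGAC and no TATAAA, and the Tgfb2 window held 2 matches to CAGAC and 1 to TATAAA. The SMAD core was present in 49.6% of the 32851 promoter windows of the same length in the table and TATAAA in 13.6%, both counted on both strands, so a CAGAC match is common. No match to either was found in the window of Tgfb1 or in any of the 3 windows of Ltbp4.

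Barcodes with under 500 genes or over 15% mitochondrial UMIs were removed, which left 21992 barcodes of the neurectomy library, 25306 of the sham library and 22384 of the DRG library, with medians of 1347.5, 1338 and 3523.5 UMIs per barcode. They were sorted into classes by marker genes. A class name stands for barcodes in which the markers of that class were at least 2-fold above the library average and clearly ahead of every other class, and such barcodes are called tenocyte-like, macrophage-like and so on. The gate named 32.1% of the neurectomy, 33.7% of the sham and 79.8% of the DRG barcodes, and the rest are called ungated. The gate is a range on a score rather than a set of discrete types. Between 10.1% (synovial lining-like, neurectomy) and 49.6% (mural-like, neurectomy) of the barcodes of the compared tendon classes lay near its limits. The tenocyte-like class was led by Scx, Fmod, Kera and Tnmd in both libraries, but these are markers of its gate, so the gate itself set their lead. Chad, Wif1, Ecrg4 and Col11a1, named after their values were seen, were not gate markers and were also among its 10 leading genes in both libraries. The DRG neuron-like class was led by Robo2, Fxyd2, Calca and Tac1, although none of its own markers was among its 10 leading genes. The red cell-like class of the sham library had as many vessel markers as globin markers among its leading genes. The synovial lining-like class of the sham library was led by Spp1 and also held Ibsp and Chad.

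The pools differed in sex. Y-linked genes had 39 UMIs in the neurectomy library and 6366 in the sham library, beside 55528 and 61571 UMIs of Xist. Neurectomy and sham thus cannot be told apart from a female and a mixed pool. The DRG library had 49538 Y-linked and 23 Xist UMIs and another set of features. The part of either in differences between ganglion and tendon levels was not tested. The tendon libraries also shared 569 barcode sequences (2.59% of those kept after neurectomy and 2.25% after sham). They accounted for 13.3% of the UMIs after neurectomy and 9.03% after sham, and 408 of them differed over 10-fold in depth between the libraries. The DRG library shared 123 and 135 barcodes with the neurectomy and sham libraries. Leaving out the barcodes shared by the tendon libraries moved 9 of 86 ratios outside their counting intervals, and those values are given with each class.

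Levels below are UMIs per 1000000 UMIs of a class total (CPM), in the neurectomy library first and the sham library second. They order the classes for 1 gene and are not compared between genes. The 3 ligands were highest in different classes. Tgfb1, the most widely made ligand of immune and endothelial cells, was highest in macrophage-like barcodes, at 302 CPM (interval 286 to 319) and 352 CPM (339 to 366), and next in lymphatic endothelial-like barcodes, at 279 and 271 CPM. Blood endothelial-like barcodes followed at 141 and 148 CPM, and tenocyte-like barcodes had 82.5 and 74.4 CPM. Macrophage-like barcodes were also highest in the ganglion, where Tgfb1 was at 254 CPM (232 to 278) in macrophage-like, 198 CPM (188 to 209) in endothelial-like and 168 CPM (128 to 217) in T and NK-like barcodes. The intervals of the last 2 overlap. Satellite glia-like and myelinating Schwann-like barcodes had 8.99 and 7.08 CPM.

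Tgfb2, a ligand known from development and from mesenchyme, was highest in tendon in fibroblast-like and synovial lining-like barcodes. Its highest levels were in stromal fibroblast-like barcodes without Pi16, at 309 CPM (289.8 to 329.6) and 295 CPM (278 to 312). Synovial lining-like barcodes had 298 and 242 CPM. Pi16 fibroblast-like barcodes, which resemble fibroblasts of the outer sheath of vessels and tendon, had 262 and 285 CPM. The 298 CPM after neurectomy and the 285 CPM after sham lie within the intervals of the stromal fibroblast-like class. The lead of that class over these 2 values is thus within counting error. Tenocyte-like barcodes, the collagen-making cells of tendon, stood lower at 174 CPM (in 2566 UMIs) and 215 CPM (in 7897 UMIs). Lymphatic endothelial-like barcodes, which are not stromal, had 183 and 225 CPM and so stood no lower than tenocyte-like barcodes. Blood endothelial-like barcodes had 46.3 and 62.6 CPM. The ganglion had a different order. Its endothelial-like barcodes had the most Tgfb2, at 115 CPM (108 to 124), ahead of Sfrp4 and Igfbp6 fibroblast-like barcodes at 93.0 CPM, mural-like at 74.9 CPM and satellite glia-like at 60.7 CPM. Myelinating Schwann-like barcodes had 1.67 CPM. In T and NK-like barcodes no Tgfb2 UMI was counted.

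Tgfb3, the ligand of fetal, less scarring repair, was highest in tenocyte-like barcodes after neurectomy, at 99.8 CPM (94.8 to 105), and stood at 86.0 CPM (83.0 to 89.0) in tenocyte-like barcodes after sham. Mural-like barcodes, the pericytes and smooth muscle of vessels, had 43.0 CPM after neurectomy and 101 CPM (84.9 to 118) after sham. DRG mural-like barcodes had 110.1 CPM (96.8 to 125), the highest level of Tgfb3 among the ganglion classes.

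The receptors were widespread. Tgfbr2 was highest in lymphatic endothelial-like barcodes, at 496 CPM (472 to 522) and 548 CPM (527 to 570), followed by macrophage-like barcodes at 380.0 and 339 CPM and Pi16 fibroblast-like barcodes at 307 and 350 CPM, whose order differed between the libraries. Tenocyte-like barcodes had 117 and 95.6 CPM, the lowest Tgfbr2 level of the 9 compared classes, although its interval overlapped that of mural-like barcodes after neurectomy (122 CPM). Tgfbr1 covered a narrower range, from 81.9 CPM in mural-like to 226 CPM in macrophage-like barcodes, both of the sham library. Synovial lining-like barcodes had 213 and 212 CPM of Tgfbr1. In the ganglion Tgfbr2 was highest in endothelial-like barcodes, at 279 CPM, and Tgfbr1 in macrophage-like barcodes, at 199.6 CPM. Myelinating Schwann-like barcodes had 93.5 CPM of Tgfbr2 (88.7 to 98.5) and neuron-like barcodes 1.98 CPM (1.77 to 2.21).

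The 4 LTBPs each had their own pattern. Ltbp1, which anchors latent TGF-beta in the matrix, was highest in Pi16 fibroblast-like barcodes, at 280.3 and 343 CPM, followed by mural-like barcodes, at 227 and 282 CPM, and tenocyte-like barcodes, at 248 and 224 CPM, whose order differed between the libraries. Its ganglion levels were of the same order in Ccl11 and Smoc2 fibroblast-like barcodes (276 CPM) and mural-like barcodes (261 CPM), whose intervals overlap. Ltbp3, needed for secretion of the ligand in several tissues, was highest in synovial lining-like barcodes, at 191 and 179 CPM, and tenocyte-like barcodes, at 158 and 133 CPM. Ltbp4, a partner of TGF-beta 1 that also serves elastic fibre assembly, was highest in lymphatic endothelial-like barcodes, at 714 CPM (685 to 745) and 823 CPM (797 to 849). Stromal fibroblast-like barcodes without Pi16 had 590.0 and 535 CPM of Ltbp4, Pi16 fibroblast-like barcodes 456 and 486 CPM, and tenocyte-like barcodes 110.2 and 91.6 CPM. In the ganglion Ltbp4 was highest in Sfrp4 and Igfbp6 fibroblast-like barcodes, at 315 CPM, against 36.1 CPM in endothelial-like barcodes. Smad7 was at 126 and 142 CPM in blood endothelial-like and 116 and 160.3 CPM in mural-like barcodes, and in the neurectomy library it was highest in red cell-like barcodes, at 158 CPM against 96.7 CPM after sham. In the ganglion it was highest in mural-like (119 CPM) and endothelial-like (113 CPM) barcodes. Ltbp2 is described after the comparison of the libraries.

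**Figure D1:**
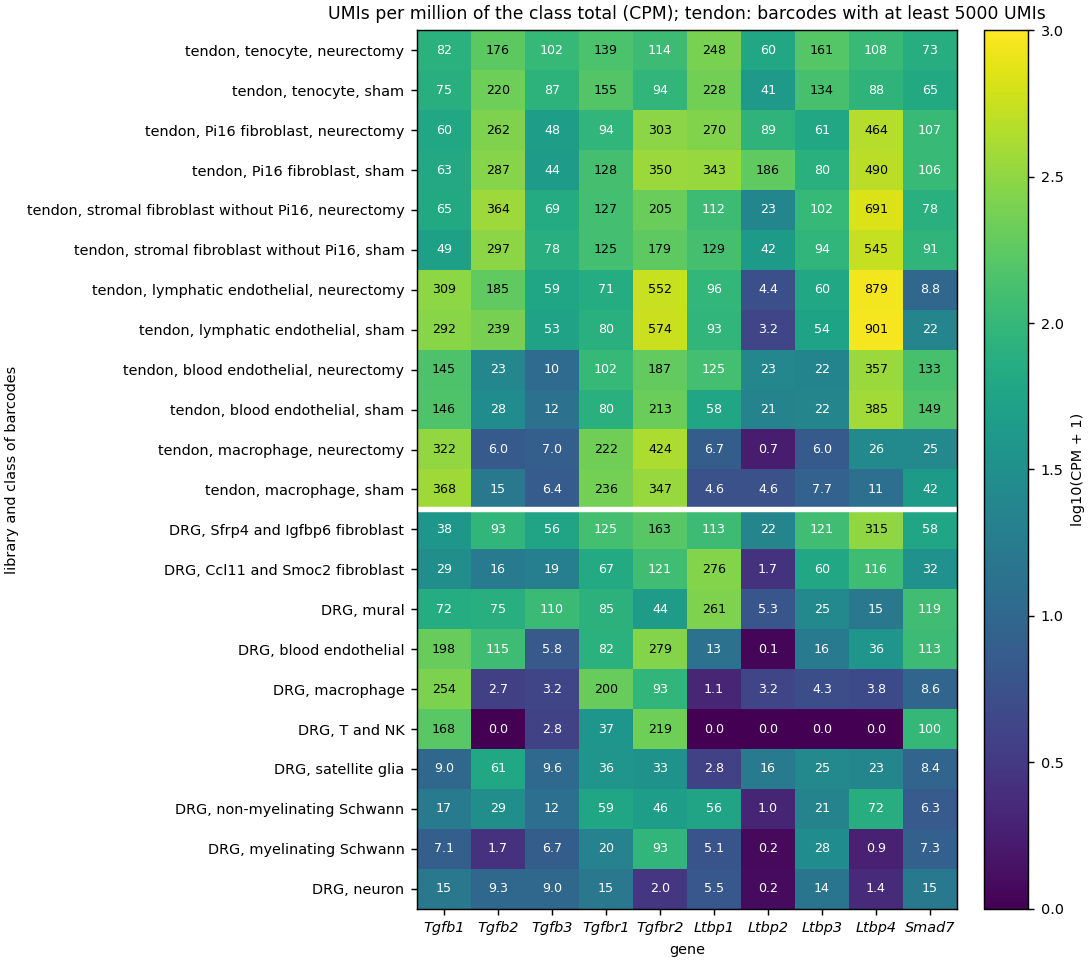
Level of each gene (columns) in each class (rows), in CPM, printed in each cell and coloured by log10(CPM + 1). Tendon rows use barcodes with at least 5000 UMIs in the neurectomy and sham libraries, and DRG rows use all kept barcodes. In macrophage-like rows of tendon Tgfb1, Tgfbr1 and Tgfbr2 are at 222 CPM or more and Ltbp1 and Ltbp2 under 10 CPM, and the neuron row holds no gene above 15.4 CPM.

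Levels of several genes in tendon macrophage-like barcodes differed with depth. Over all barcodes, macrophage-like barcodes had 34.6 and 23.9 CPM of Tgfb2, 23.5 and 10.8 CPM of Ltbp1 and 48.5 and 20.4 CPM of Ltbp4. In macrophage-like barcodes with at least 5000 UMIs these levels were 6.03 and 15.0 CPM of Tgfb2, 6.71 and 4.58 CPM of Ltbp1, and 26.5 and 11.3 CPM of Ltbp4. Tgfb1 at that depth was at 322 and 368 CPM, Tgfbr1 at 222 and 236 CPM and Tgfbr2 at 424 and 347 CPM, all higher than over all depths. The fibrillar collagen genes Col1a1 and Col1a2, which macrophages do not make in quantity, moved with depth as well. Their sum was 15188 CPM in neurectomy and 31262 CPM in sham macrophage-like barcodes of 500 to 1000 UMIs, and 801 and 1084 CPM at 5000 to 20000 UMIs. The median depth of macrophage-like barcodes was 1589 UMIs after neurectomy and 4830.5 after sham, and the median of their tenocyte markers was 11.6 and 1.97 UMIs per 10000. The part of this depth difference in the ratios of Tgfb2 and the LTBPs in macrophage-like barcodes was not tested beyond the values at 5000 UMIs.

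**Figure D2:**
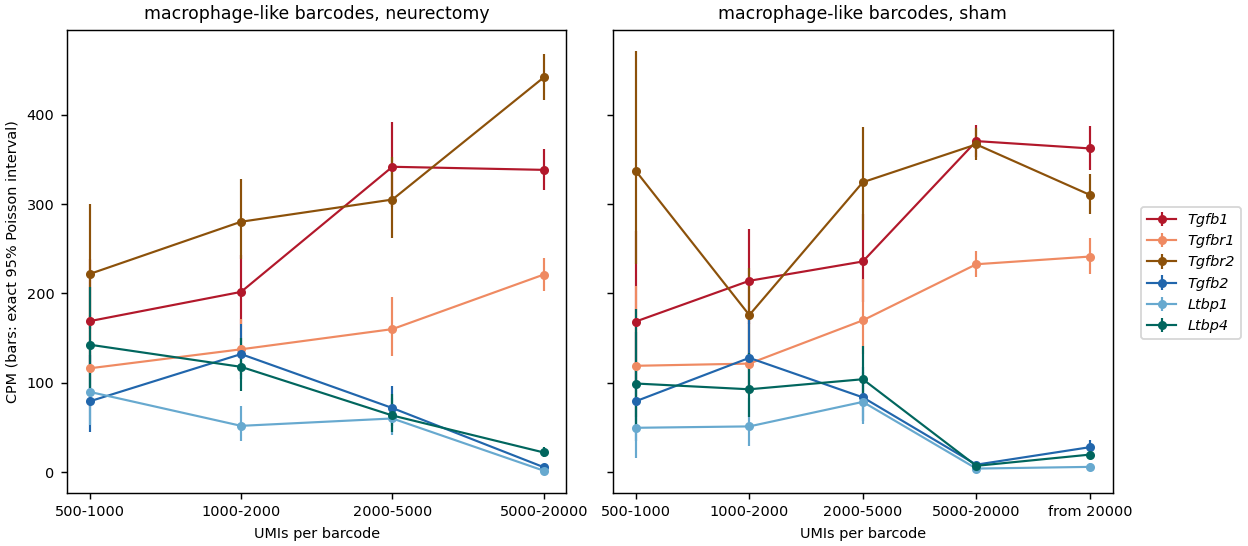
Level of 6 genes in macrophage-like tendon barcodes by UMIs per barcode, in the neurectomy library (left) and the sham library (right), as CPM with exact 95% Poisson intervals. Bins with under 20 barcodes are left out. Tgfb1, Tgfbr1 and Tgfbr2 are high in deep barcodes, and Tgfb2, Ltbp1 and Ltbp4 are at most 27.9 CPM from 5000 UMIs on.

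The neurectomy library was set beside the sham library class by class. Ratios are the CPM of the neurectomy library over that of the sham library, on the log2 scale. A gene entered with at least 50 UMIs and 10 CPM in the higher library, and 2-fold was taken as the mark of a difference. Over 9 classes, 87 pairs of gene and class entered and 7 were at least 2-fold apart, where 2.82% of all pairs were (1895 of 67233). Of these 7, 4 were Ltbp2, and the others were Ltbp1 and Ltbp4 in macrophage-like and Tgfb3 in mural-like barcodes. Apart from Tgfb3 in mural-like barcodes, no ligand or receptor was 2-fold apart over all kept barcodes.

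In tenocyte-like barcodes none of the 10 genes was 2-fold apart, where 1.49% of all genes that entered were (126 of 8475, with 0.850% higher and 0.637% lower). The class lay mainly in cluster 11 after neurectomy (57.6%, with 12.1% in cluster 16) and in both clusters after sham (41.5% and 39.5%). Tgfb2 was lower after neurectomy by a log2 ratio of -0.31 (interval -0.38 to -0.25), and Tgfbr1 stood at -0.11 (-0.18 to -0.04). The other 8 genes were higher, with intervals above 0, as were 24.9% of all genes, with 18.1% below. They ranged from 0.14 for Smad7 to 0.57 (0.45 to 0.69) for Ltbp2, with Tgfb3 at 0.21, Tgfbr2 at 0.29, Ltbp3 at 0.25, Ltbp4 at 0.27, Tgfb1 at 0.15 and Ltbp1 at 0.15. The median of the 10 was 0.18, beside 0.02 for all genes that entered. Without a second library of either group, it is not known whether sizes such as these exceed the spread between libraries.

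The Ltbp2 value in tenocyte-like barcodes rested on few barcodes. One barcode of the neurectomy library held 220 of the 925 Ltbp2 UMIs of the class (23.8%), and 10 barcodes held 51.5% of them, against 17.7% in the top 10 of the sham class. Without the top barcode of each library the log2 ratio was 0.22, and without the shared barcodes it was 0.03, at 38.4 and 37.7 CPM. With Leiden clusters in place of the gate it was -0.34, so the direction depended on the setting. Those clusters were 11, where Ltbp2 was at 34.9 CPM (31.8 to 38.1) and 23.9 CPM (22.3 to 25.7), and 12, which had 24 neurectomy and 299 sham barcodes and 177 CPM of Ltbp2 after sham. By comparison, Tgfb2 in tenocyte-like barcodes had 14.3% and 6.79% of its UMIs in the top 10 barcodes, and its log2 ratio lay between -0.38 and -0.28 in every alternative run.

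Pi16 fibroblast-like barcodes had 1 of 10 genes 2-fold apart, against 1.31% of all genes that entered (0.742% lower). That gene was Ltbp2. It was at 85.6 CPM (77.6 to 94.3, 415 UMIs in 382 barcodes) after neurectomy and 186 CPM (178 to 195, 1791 UMIs in 538 barcodes) after sham, a log2 ratio of -1.12 (-1.28 to -0.97). The difference was -1.07 at 5000 UMIs per barcode, -1.23 without the top barcode and -1.47 without the shared barcodes. It was -0.97 in barcodes with Xist and no Y-linked UMI. Tgfbr1 (-0.41), Ltbp3 (-0.40), Ltbp1 (-0.29), Tgfbr2 (-0.19), Tgfb2 (-0.12) and Ltbp4 (-0.09) were also lower with intervals below 0, and Tgfb1, Tgfb3 and Smad7 had intervals that included 0. In all, 7 of the 10 genes had intervals below 0 in this class and none above, where 14.2% of all genes lay below and 15.3% above. Without the shared barcodes Ltbp4 was at 0.01.

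Synovial lining-like barcodes, which carry the lubricin gene Prg4, also had less Ltbp2 after neurectomy, 35.4 CPM (63 UMIs) against 125 CPM (563 UMIs), a log2 ratio of -1.82 (-2.22 to -1.44). This was the only one of the 10 genes 2-fold apart there, where 5.42% of all genes were (1.79% higher and 3.63% lower). One sham barcode held 134 of the 563 UMIs, and the ratio was -1.57 without the top barcodes and -1.42 without the shared barcodes. The median depth was 1314 UMIs after neurectomy and 5802 after sham, and no ratio at 5000 UMIs could be had for this class. With each barcode scaled to its own total it turned to 0.24. The class lay in different clusters in the 2 libraries. Leiden cluster 0 held 67.9% of its neurectomy barcodes, whereas clusters 17 and 16 held 23.6% and 21.8% of its sham barcodes, and its tenocyte markers had medians of 21.3 and 75.7 UMIs per 10000. The part of depth and cluster in the ratio was not tested. Tgfb2 in this class was at 0.30, and at 0.14 without the shared barcodes.

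Stromal fibroblast-like barcodes without Pi16 had none of 10 genes 2-fold apart, where 2.20% of all genes were. Tgfb1 was at 0.44 (0.15 to 0.73) and Ltbp4 at 0.14 (0.05 to 0.23) on the log2 scale. Ltbp2 stood at -0.21 with an interval that included 0, and moved between -1.06 with 1 more marker required and 0.98 with each barcode scaled to its own total. The class lay mostly in cluster 6 after sham (63.2%) and in clusters 6 and 7 after neurectomy (32.4% and 24.9%). Its median depth was 1906.5 UMIs after neurectomy and 9823 after sham. The part of this depth difference in the ratios of the class was not tested.

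Among vessel classes, lymphatic endothelial-like barcodes had 1 of 10 genes 2-fold apart, against 1.97% of all genes (1.49% higher). Ltbp2 was at 26.7 CPM (82 UMIs) after neurectomy and 9.80 CPM (46 UMIs) after sham, a log2 ratio of 1.45, with a lower limit of 0.91. In barcodes with at least 5000 UMIs it was near the floor in both, at 4.42 CPM (8 UMIs) and 3.18 CPM (12 UMIs). The shared barcodes held 58.0% of the UMIs of the sham class and 33.6% of the neurectomy class, and without them the ratio was 0.95. The genes with high levels in this class differed little. Tgfbr2 was at -0.14 (-0.24 to -0.05), Ltbp4 at -0.20 (-0.28 to -0.13), Tgfb2 at -0.30 (-0.45 to -0.15) and Tgfb1 at 0.04 (-0.08 to 0.17). Smad7 was at 0.22 over all barcodes, but at -1.33 in those with at least 5000 UMIs, where it had 8.85 CPM (16 UMIs) after neurectomy and 22.3 CPM (84 UMIs) after sham. Without the shared barcodes Smad7 was at 0.64, Tgfb3 at 0.52 (0.22 with them), Tgfbr2 at -0.25 and Tgfb2 at 0.01.

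Blood endothelial-like barcodes had none of the 9 genes that entered 2-fold apart, against 1.70% of all genes. Ltbp1 came nearest, at 139 CPM (360 UMIs) after neurectomy and 75.3 CPM (202 UMIs) after sham, a log2 ratio of 0.88 (0.63 to 1.14). In barcodes with at least 5000 UMIs it was 125 and 58.4 CPM, a ratio of 1.09, without the shared barcodes 0.90, and in barcodes with Xist and no Y-linked UMI 1.27. With each barcode scaled to its own total it was 0.52, and with Leiden clusters as classes 0.49. Within cluster 5, whose leading genes include the mural markers Rgs5 and Myh11, it was at 175 and 118 CPM, and within cluster 21 at 60.6 CPM (49.1 to 74.1) and 72.1 CPM (60.2 to 85.7), which overlap. Tgfb2 (-0.44) and Tgfbr2 (-0.21) were lower with intervals below 0.

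In mural-like barcodes Tgfb3 was the 1 gene of 8 that was 2-fold apart, against 4.32% of all genes (2.62% lower). It had 36 UMIs (43.0 CPM) after neurectomy and 145 UMIs (101 CPM) after sham, a log2 ratio of -1.23 (-1.80 to -0.69). With at most 5% mitochondrial UMIs the ratio was -0.75, and with each barcode scaled to its own total -0.81. The contractile genes Acta2 and Tagln, which mark smooth muscle and are named after their values were seen, were lower in the same class by log2 ratios of -1.30 and -1.47, and whether they moved with Tgfb3 in the same barcodes was not tested. Both belong to the list of target genes described below, which mostly went the other way in this class. Of its 15 genes that entered, 2 were 2-fold higher and 2 lower. Intervals lay above 0 for 9 and below 0 for 3, against 807 and 751 of the 4765 genes that entered. The median was 0.19 beside -0.06 for all genes. The class held 270 and 359 barcodes, with medians of 1724 and 2202 UMIs. Cluster 5, named blood endothelial, held 59.6% and 51.0% of them, and the mural cluster 18 held 18.1% and 25.6%. Tgfb3 was at 138 CPM in cluster 18 over both libraries. Within cluster 5 it was at 36.5 CPM (31.4 to 42.2) and 40.0 CPM (34.5 to 46.1), which overlap. The part of this make-up in the ratio was not tested.

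Macrophage-like barcodes had 2 of 10 genes 2-fold apart, Ltbp1 at 1.13 (0.70 to 1.56) and Ltbp4 at 1.25 (0.94 to 1.55), against 3.45% of all genes (2.31% higher). With each barcode scaled to its own total they were at 0.66 and 0.75, with Leiden clusters as classes at 0.51 and 0.98, and without the shared barcodes at 0.99 and 1.22. Ltbp2 in this class was at 0.87, and at 1.41 (59 and 39 UMIs) without the shared barcodes. Fbn1 and Lox, matrix genes that fibroblasts make, were higher in the same barcodes by 1.26 and 1.61, and Postn, another such gene, was lower by a log2 ratio of -1.24. The class was mainly cluster 2 after neurectomy (63.3%, with 32.6% in cluster 15) and cluster 15 after sham (54.4%, with 38.8% in cluster 2). Within cluster 2 Ltbp1 was at 105 CPM (94.4 to 117) and 126 CPM (113 to 139) and Ltbp4 at 177 and 136 CPM, and within cluster 15 Ltbp1 had 7 and 12 UMIs, so the higher Ltbp1 was not seen within either cluster. At 5000 UMIs Ltbp4 was at 1.23, Ltbp1 had too few UMIs to enter, and Tgfb2 turned from 0.54 to -1.32, at 18 and 105 UMIs. The members with high levels in macrophages differed less. Tgfb1 was at -0.22 (-0.32 to -0.12), Tgfbr1 at -0.19 (-0.31 to -0.07), Tgfbr2 at 0.16 (0.07 to 0.25) and Smad7 at -0.53 (-0.83 to -0.24). In red cell-like barcodes 1 of 10 genes was 2-fold apart, against 6.50% of all genes (3.96% higher and 2.54% lower). That was Ltbp2, at 213 CPM (160 UMIs) and 71.1 CPM (75 UMIs), a log2 ratio of 1.58, with a lower limit of 1.18. The class lay in cluster 5 (49.0%) and cluster 3 (21.4%) after neurectomy and in cluster 16 (44.1%) and cluster 5 (24.2%) after sham, and the part of this in the ratio was not tested. Red cells lack most transcripts, and these barcodes carried Ltbp4 at 205 and 194 CPM and tenocyte markers at medians of 28.1 and 78.2 UMIs per 10000.

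**Figure D3:**
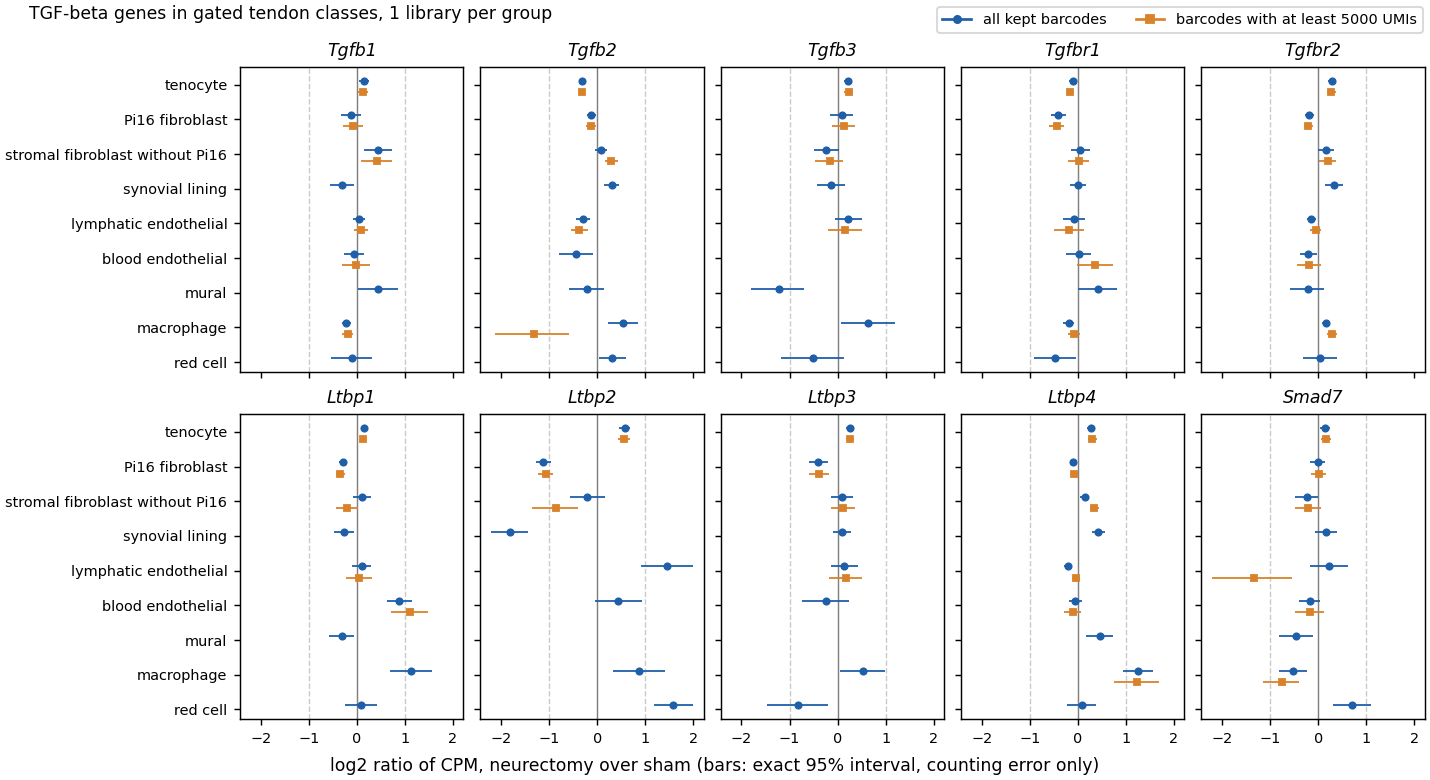
Log2 ratio of CPM, neurectomy over sham, of each gene in each tendon class, over all kept barcodes (circles) and over barcodes with at least 5000 UMIs (squares, where a class had enough), with exact 95% intervals for counting error. Dashed lines mark 2-fold. Most points lie within 0.5 of 0, and Ltbp2 spans from -1.82 in synovial lining-like to 1.58 in red cell-like barcodes.

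Ltbp2 stood apart from the other 9 genes in where it was counted. Over all kept barcodes it was at 135 CPM after neurectomy and 93.0 CPM after sham. Ungated barcodes accounted for 78.4% (77.6 to 79.2%) of Ltbp2 UMIs after neurectomy and 61.3% (60.5 to 62.2%) after sham, while they held 50.5% and 41.6% of all UMIs. For the other 9 genes the ungated share ran from 40.3% (Tgfbr2) to 59.6% (Smad7) after neurectomy and from 32.3% (Tgfbr2) to 48.9% (Smad7) after sham. Not all ungated barcodes were shallow. In the neurectomy library 373 of them and in the sham library 588 had at least 20000 UMIs, and Ltbp2 in these was at 344 CPM (334 to 355) and 233 CPM (227 to 240.2). At 500 to 1000 UMIs it was at 136 and 90.8 CPM.

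In Leiden clusters of both tendon libraries, cluster 3 held 72.7% of the ungated Ltbp2 UMIs after neurectomy but 8.08% after sham, where cluster 6 held 43.7% and cluster 12 held 12.7%. Cluster 3 had 5855 neurectomy and 1215 sham barcodes and matched no marker list. Its leading genes were Il1rl1, the receptor of interleukin 33, Hmga2, Sfrp4, Ccnd1, Ltbp2 itself, Csmd1 and Inhba, which encodes the activin A subunit. Since Ltbp2 helped to define the cluster, its level there is a description. It was at 401 CPM (391 to 410.1) in the neurectomy barcodes of the cluster and 274 CPM (254 to 294) in the sham barcodes. In cluster 6, nearest to Pi16 fibroblasts, the order was the other way, 80.9 CPM (76.3 to 85.7) after neurectomy and 210.2 CPM (205 to 216) after sham. Cluster 15, the deep macrophage-like cluster, had 2 and 3 Ltbp2 UMIs (0.55 and 0.39 CPM). Ltbp2 was thus lower after neurectomy in Pi16 fibroblast-like barcodes of the gate and in cluster 6, and higher in cluster 3. Cluster 6 held 75.4% and 75.8% of those gated barcodes, so these values overlap. Its ungated barcodes had median depths of 2163.5 and 15978 UMIs, and cluster 3 had a median of 1053. Among other clusters, Ltbp2 was higher after neurectomy in 5 (81.4 and 44.4 CPM), 11 (34.9 and 23.9), 13 (42.5 and 14.3) and 19 (197 and 97.9). On few UMIs it was also higher in 21 (41 and 0 UMIs) and 23 (15 and 4 UMIs). It was lower in 4 (84.9 and 117 CPM), 14 (73.2 and 201) and 17 (22.0 and 86.9). Shared barcodes held 33.1% and 25.1% of the ungated Ltbp2 UMIs. Since most barcodes of cluster 3 came from 1 library, the cluster may reflect that library and not a type of cell.

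**Figure D4:**
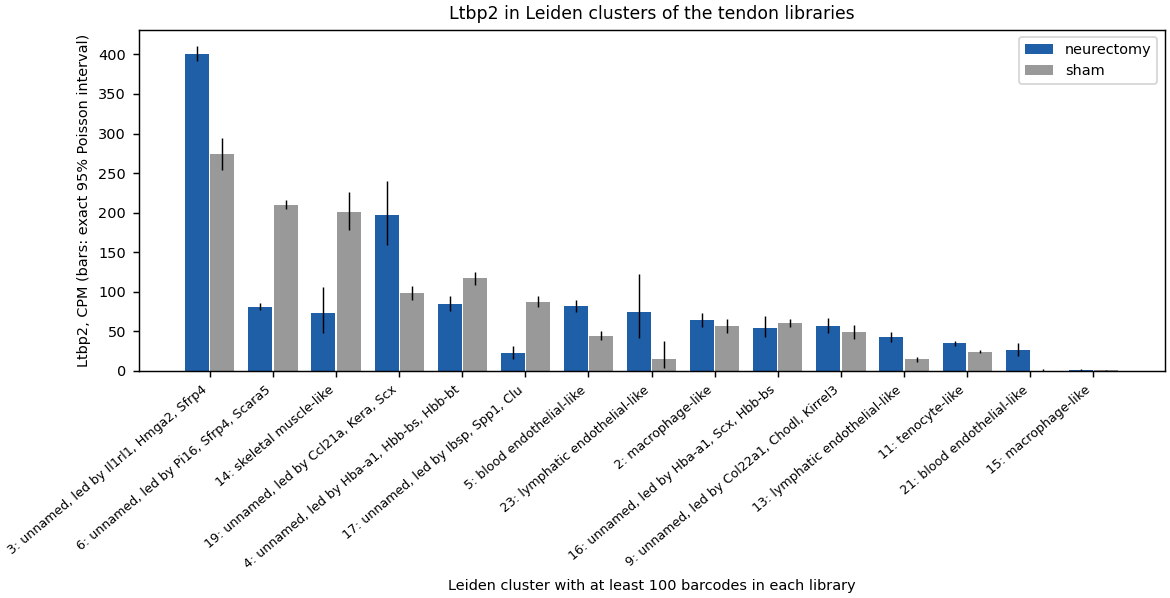
Ltbp2 level in each Leiden cluster with at least 100 barcodes in each tendon library, as CPM with exact 95% Poisson intervals, neurectomy in blue and sham in grey. Clusters are ordered by their higher level. Unnamed clusters are given by their leading genes. Cluster 3 is highest at 401 and 274 CPM, cluster 6 has 80.9 and 210.2 CPM, and the deep macrophage-like cluster 15 is near 0.

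The rest of the pathway was described with 5 lists of genes, counted like the members. In tenocyte-like barcodes none of 8 latent complex partners and activators, 5 coreceptors, 6 signal transducers and 10 negative regulators was 2-fold apart, and 1 of 15 target genes was. That gene was Acta2, smooth muscle actin, at 63.2 and 133 CPM, a log2 ratio of -1.08 (-1.18 to -0.98). The median of the target genes was -0.13, beside 0.02 for all genes. Intervals lay below 0 for 9 of 15 and above 0 for 2, against 18.1% and 24.9% of all genes. Next in size were Tgif1, a corepressor of SMADs, at 0.53, and Timp1, a metalloproteinase inhibitor, at 0.52. The target Ccn2 (-0.51), named after its value was seen, was at 502 and 716 CPM. Medians of the other lists in tenocyte-like barcodes ran from -0.06 (signal transducers) to 0.06 (negative regulators).

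Pi16 fibroblast-like barcodes likewise had 1 of 13 targets 2-fold apart, Ccn2, a matricellular protein, at 91.6 CPM (444 UMIs) and 238 CPM (2293 UMIs), a ratio of -1.38 (-1.53 to -1.23). It was chosen after its value was seen. The target list had a median of -0.13 there, with 8 of 13 intervals below 0 and 1 above, against 14.2% and 15.3% of all genes. In stromal fibroblast-like barcodes without Pi16, 12 of 15 target intervals lay below 0 and 2 above, against 14.2% and 12.2% of all genes, with a median of -0.45 beside -0.05 for all genes. Lymphatic endothelial-like barcodes went the other way, with 9 of 15 above 0 and 3 below, against 14.6% and 15.4% of all genes, and a median of 0.23 beside -0.04. Among the genes of largest size in them were the target Id1 at -1.22 (77.8 and 182 CPM) and Lox, a collagen crosslinking enzyme, at 0.79. Id1 is known as a target of the BMP branch as much as of TGF-beta. In macrophage-like barcodes the 3 largest were Lox (1.61), Fbn1 (1.26) and Postn (-1.24), all genes that stromal cells make. No list was tested as a set.

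The partners of latent TGF-beta had class patterns of their own, given here for genes chosen after their values were seen. Nrros, which anchors latent TGF-beta 1 on myeloid cells, was at 230.1 and 159 CPM in tendon macrophage-like and 204 CPM in DRG macrophage-like barcodes, and at 1.22 and 1.17 CPM in tenocyte-like barcodes. Lrrc32, which does so on endothelium, platelets and regulatory T cells, was at 133 and 115 CPM in lymphatic endothelial-like barcodes and 230.1 CPM in DRG endothelial-like barcodes. It was highest in DRG mural-like barcodes, at 337 CPM. Fbn1, the fibrillin that holds LTBPs, was at 3589 and 4209 CPM in Pi16 fibroblast-like and 383 and 350.0 CPM in tenocyte-like barcodes. Itgb8, the beta subunit of an integrin that activates latent TGF-beta, was at 15.8 and 17.5 CPM in tenocyte-like barcodes but at 572 CPM in myelinating Schwann-like, 521.5 CPM in non-myelinating Schwann-like and 247 CPM in satellite glia-like barcodes of the ganglion.

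In the ganglion, neuron-like barcodes were the deepest, with a median of 47607 UMIs. They had low levels of all 10 genes, from 0.23 CPM (Ltbp2) to 15.4 CPM (Smad7). Such levels were not particular to neurons. In deep barcodes, at the depth limit of the tendon rows above, Tgfb1 was at 14.7 CPM in neuron-like barcodes. It was at 8.85 CPM in satellite glia-like and 7.30 CPM in myelinating Schwann-like barcodes. Smad7 was at 15.4, 8.59 and 7.30 CPM in these classes. Tgfbr1, Tgfbr2 and Ltbp3 were lower in neuron-like than in both glial classes. The other members did not differ from both in the same direction beyond counting error. Over all kept barcodes, Tgfbr2 was at 1.98 CPM in neuron-like barcodes, in 161270615 UMIs. It was at 93.5 CPM in myelinating Schwann-like, 33.4 CPM in satellite glia-like and 279 CPM in endothelial-like barcodes. Droplets take up free RNA, and its part in the 1.98 CPM was not tested. The coreceptor Tgfbr3, betaglycan, was at 25.2 CPM in neuron-like and 402 CPM in myelinating Schwann-like barcodes. Smad2 and Smad4 differed less, and in opposite directions. They were at 57.3 and 97.0 CPM in neuron-like barcodes and at 88.2 and 76.2 CPM in myelinating Schwann-like barcodes. Smad3 was at 0.60 and 1.2 CPM in those classes and 74.7 CPM in endothelial-like barcodes.

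Neuron subtypes, gated by markers within the neurons, differed in the few members they held. Tgfb1 was at 47.3 CPM (44.6 to 50.1) in peptidergic neurons, the nociceptors that release CGRP and substance P, and at 0.93 CPM (0.68 to 1.25) in Mrgprd neurons, a class of skin nociceptors. Peptidergic neurons gave 1138 Tgfb1 UMIs, found in 272 of 552 barcodes with at most 17 in any one, and Mrgprd neurons gave 45 UMIs in 34 of 611 barcodes. The Mrgprd neurons were the deeper ones, with a median of 81485 UMIs against 46397.5. Tgfbr1 was likewise highest in peptidergic and next in Nefh touch neurons, the latter with 17.0 CPM of Tgfb1. It was at 39.1 CPM (36.6 to 41.7) in peptidergic neurons, in 367 of 552 barcodes, and at 17.7 CPM in Nefh touch neurons. The Nefh touch neurons were gated by Ntrk2, Ntrk3, Cadps2 and Baiap2l1, and Nefh itself was not a marker. Tgfbr1 was at 7.55 CPM in Trpm8 cold neurons, 5.39 CPM in itch neurons, 3.81 CPM in C-LTMR touch neurons and 3.73 CPM in Mrgprd neurons. The last 2 do not differ beyond counting error. Tgfbr2 was between 0.77 and 4.22 CPM in all 6 subtypes, and in peptidergic neurons, which had the most Tgfbr1, it was at 1.04 CPM (25 UMIs).

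Ltbp1 had another order. It was at 32.9 CPM (28.8 to 37.4) in Trpm8 neurons, in 93 of 198 barcodes, at 19.4 CPM (16.9 to 22.2) in itch neurons, in 99 of 186 barcodes, and at 0.75 CPM in Mrgprd neurons. Ltbp3 was highest in Nefh touch neurons, at 26.0 CPM, and Tgfb3 in peptidergic and Nefh touch neurons, at 15.5 and 13.1 CPM, which overlap within counting error. Of the neuron-like barcodes, 1367 (39.4%) stayed without a subtype. Pvalb neurons, at 39 barcodes, were too few to describe.

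**Figure D5:**
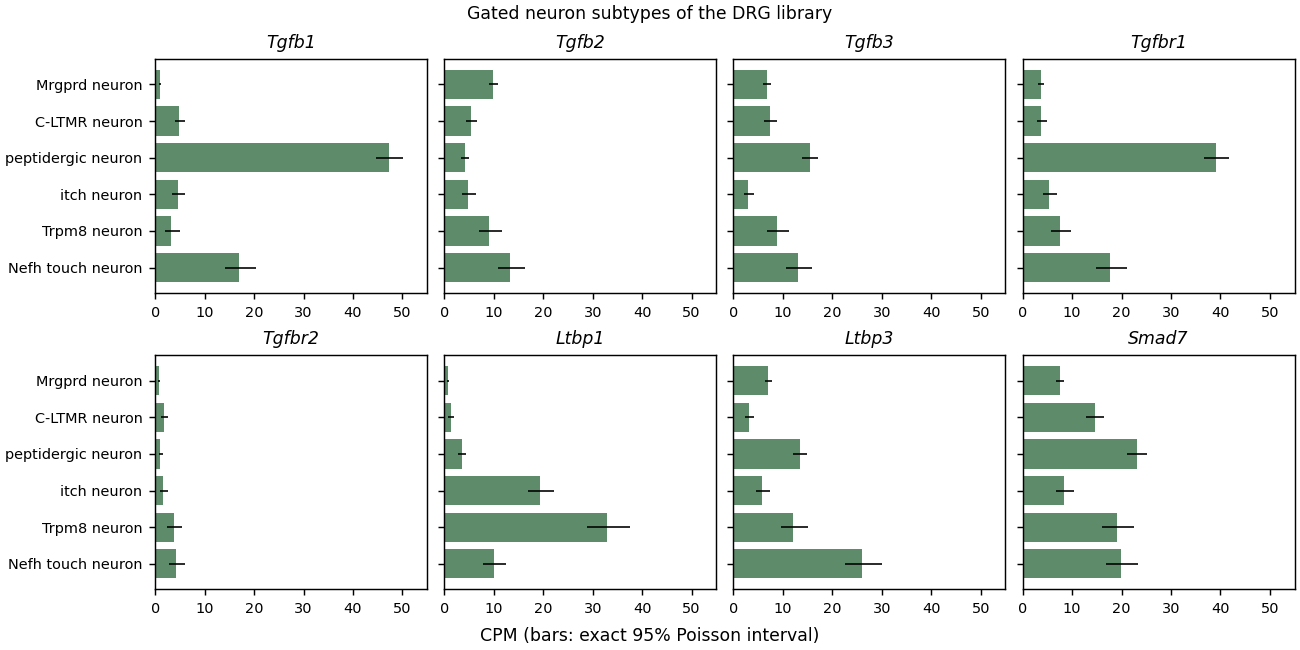
Level of 8 genes in 6 gated neuron subtypes of the DRG library, as CPM with exact 95% Poisson intervals, on 1 common axis. Tgfb1 and Tgfbr1 stand highest in peptidergic neurons at 47.3 and 39.1 CPM, Ltbp1 in Trpm8 and itch neurons, and Tgfbr2 stays under 5 CPM in every subtype.

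Across 32 classes of the tendon and DRG libraries, the genes most like each ligand and Ltbp2 in log2(CPM + 10) were found among 8676 genes by Pearson's correlation, as a description with no p, since classes of 1 library share its depth and composition. Tgfb1 was most like Uvrag and Ikbkb, both with r of 0.88. Tgfb2 was most like Bmp1, the procollagen C-proteinase, with r of 0.90, and Lix1l, with 0.89. Tgfb3 was most like Pkd1 and Trabd2b, at 0.90 each, and Ltbp2 was most like Ociad2 and Anxa8, both at 0.91.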

How the data were processed

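The authors deposited raw UMI counts for each gene in each barcode, which came from Cell Ranger 8.0.1 according to the headers, and did not scale them. Builds mm10 and GRCm39 appear in the submitters' processing notes with no library named, so gene coordinates are not given. The members and lists were chosen with earlier results of these data known, and the gate's limits were set after the data were seen.

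Barcodes needed 500 genes and at most 15% mitochondrial UMIs. A barcode was gated to the class whose markers (at least 2 detected) had at least 2 times the count expected from its depth, a Poisson log-likelihood ratio of at least 5 and 2 times that of any other class. Barcodes scoring for a second class (475, 649 and 170 in the neurectomy, sham and DRG libraries) were left ungated, and no doublet caller was run. Raw UMIs were summed per class with at least 100 barcodes and scaled to CPM, with exact Poisson intervals and exact conditional binomial intervals for ratios, which take UMIs as independent. With 1 library per group no test was made. The ratio code was tested on simulated data. Alternatives changed depth, gate, classes (Leiden clusters from 2000 variable genes), scaling, filters and sex, and, chosen after seeing the data, the shared barcodes and each gene's top barcode. Named pathway genes are the 3 largest ratios in tenocyte-like barcodes and the next 2 classes by barcodes, and likeness names the 2 most correlated genes. Genes named after their values were seen are said to be so. One gene that this rule names is not reported here. Tools were Python 3.11.15, numpy 2.4.6, scipy 1.17.1 and scanpy 1.11.5. Promoters came from RefSeq. Protein sequences were not used here.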

Additional observations from a re-analysis of the deposited data

How the results depend on the processing

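The 7 pairs of gene and class that were at least 2-fold apart became 2 (of 40 that entered) with Leiden clusters as classes and 3 (of 87) with each barcode scaled to its own total, and numbered between 5 and 9 under the other alternatives. The count of genes 2-fold apart in tenocyte-like barcodes, 126, became 3288 with no filter on low counts, where 20692 genes entered, and 204 among barcodes with Xist and no Y-linked UMI, and was between 108 and 136 otherwise. Ltbp2 in synovial lining-like barcodes was the only called ratio to change sign, from -1.82 to 0.24 with each barcode scaled to its own total. That scaling left 55 of 87 ratios within their counting intervals, Leiden clusters 29 of 39, a depth of 5000 UMIs 42 of 51, Xist without Y-linked UMIs 69 of 81, and leaving out the shared barcodes 77 of 86. No paired analysis was possible because each group had 1 library. The cause of these shifts was not tested. Depth limits the low members most. A class gave no ratio for a gene with under 50 UMIs in the library of the higher level. The other library could hold fewer, such as 36 UMIs of Tgfb3 in mural-like barcodes after neurectomy. In mural-like and red cell-like barcodes every member had under 200 UMIs after neurectomy.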
